A study of Mus musculus with 6 samples.

Results

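The autophagy and mitophagy machinery was examined here as a list of genes chosen by symbol. The rule uses no measured value, but the list was drawn up with earlier results of these data known. The list holds the symbols that begin with Atg and a digit, of which 18 were matched, and 25 named genes, of which 23 were analysed and 2, Optn and Map1lc3b, were not analysed here. This gave 41 genes of the 17872 in the count table. They were sorted by role into 7 receptors, 11 initiation genes, 7 membrane supply genes, 11 conjugation genes, 4 ATG8 modifiers and 1 tethering gene. Pink1, which encodes a kinase of mitophagy, was placed with the receptors. All 41 passed the filter on low counts.

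The libraries came from BV2, an immortalized mouse microglial cell line, in 2 groups of 3: wild-type cells, called controls, and cells labelled Tfam knockout, which had been edited with CRISPR-Cas9. The product of Tfam coats mitochondrial DNA and is needed for its transcription. Both groups are labelled as untreated, and the protocol given for all samples describes continuous puromycin after editing, so whether the wild-type cells were also kept in puromycin is not clear. Whether the edited line is a clone or a pool is not stated, and nothing says that replicates were grown separately, so the p-values reflect only the variation among these libraries, and that variation may be technical. Differences between the groups other than the edit cannot be told apart from it. In bulk RNA, fewer expressing cells and less RNA per cell cannot be told apart either.

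Autophagy encloses cytoplasm in a double membrane, the autophagosome, and delivers it to lysosomes. The ULK1 kinase complex and the class III phosphatidylinositol 3-kinase complex start the process, lipid transfer and scrambling proteins supply the membrane, and 2 ubiquitin-like conjugation systems attach ATG8 proteins (the LC3 and GABARAP families) to lipid. Receptors bind both cargo and ATG8 proteins, and in mitophagy they mark mitochondria for removal. In microglia, the pathway is known for clearing damaged mitochondria and engulfed material.

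Library totals ran from 13850691 to 28418133 counts. Tfam mRNA was at 39.0, 38.5 and 37.1 CPM in controls and at 41.0, 42.7 and 43.2 CPM in the libraries labelled knockout. CPM (counts scaled to a common library size) were computed with TMM factors, which correct library sizes for composition. The log2 fold change of Tfam was 0.14 ± 0.0869 (SE) with an adjusted p of 0.193 (edgeR's quasi-likelihood test, Benjamini-Hochberg adjustment over all 13403 genes tested), so a loss of the Tfam transcript was not seen. Genes of the mitochondrial genome took 3.52% to 4.31% of counts in controls and 1.37% to 1.42% in the libraries labelled knockout. Of 10 microglia and macrophage markers, 8 were analysed. Their summed level was 2450 to 2730 CPM (by library totals) in controls and 1810 to 1920 in the libraries labelled knockout. Cd68 was the most abundant, with means of 1264 CPM in controls and 1003 CPM in the libraries labelled knockout (with TMM factors). Log2 fold changes were -1.46 for Csf1r, -0.91 for Fcgr3, -0.83 for Tyrobp, -0.33 for Cd68 and -0.06 for Ptprc. Aif1 and Cx3cr1 were counted at low levels, with means of 2.97 and 1.82 CPM in controls and log2 fold changes of -0.49 and -1.15. Ptprc and Aif1 did not pass the test. Tmem119 was near the floor in all libraries, with 11, 8 and 9 counts in controls and 8, 0 and 0 in the libraries labelled knockout. It did not pass the filter on low counts and was not tested. Marker sums were at most 24.2 CPM in any library for neurons, astrocytes, oligodendrocytes and fibroblasts, and the part of any of these differences in the results below was not tested. Of 5 markers listed for each, 3 were analysed for neurons, 2 for astrocytes, 5 for oligodendrocytes and 1 for fibroblasts. Most of these sums therefore cover only part of a list.

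Among the 41 genes, 7 rose and 18 fell in the libraries labelled knockout, and 16 did not pass the test. Calls required an adjusted p under 0.05. The called share was 61%, against 44.2% of all 13403 tested genes, of which 21.3% were called higher and 22.9% lower. Most of the changes were small: 19 of the 25 called genes changed by less than 1.5-fold, and 3 of the 41 changed at least 2-fold, against 9.15% of all tested genes. Those 3 were the cargo receptor Sqstm1, which rose, and the mitophagy receptor Bnip3l and the phosphoinositide-binding protein Wipi1, which fell. Groups did not overlap for 26 of the 41 genes (63.4%), against 52.9% of all tested genes. With scaling to library totals and no TMM factors, the median log2 fold change over all genes went from 0.00 to 0.10, and 11 members were higher and 12 lower. The higher share of called members was therefore 28% with TMM scaling and 47.8% with totals. Over all tested genes, 2859 were higher and 3067 lower with TMM scaling, and 3834 were higher and 2372 lower with totals, so under both scalings higher calls were a smaller part of the members' calls than of all calls, a difference that was not tested. Leaving out control 3 gave 3 higher and 14 lower.

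**Figure D1:**
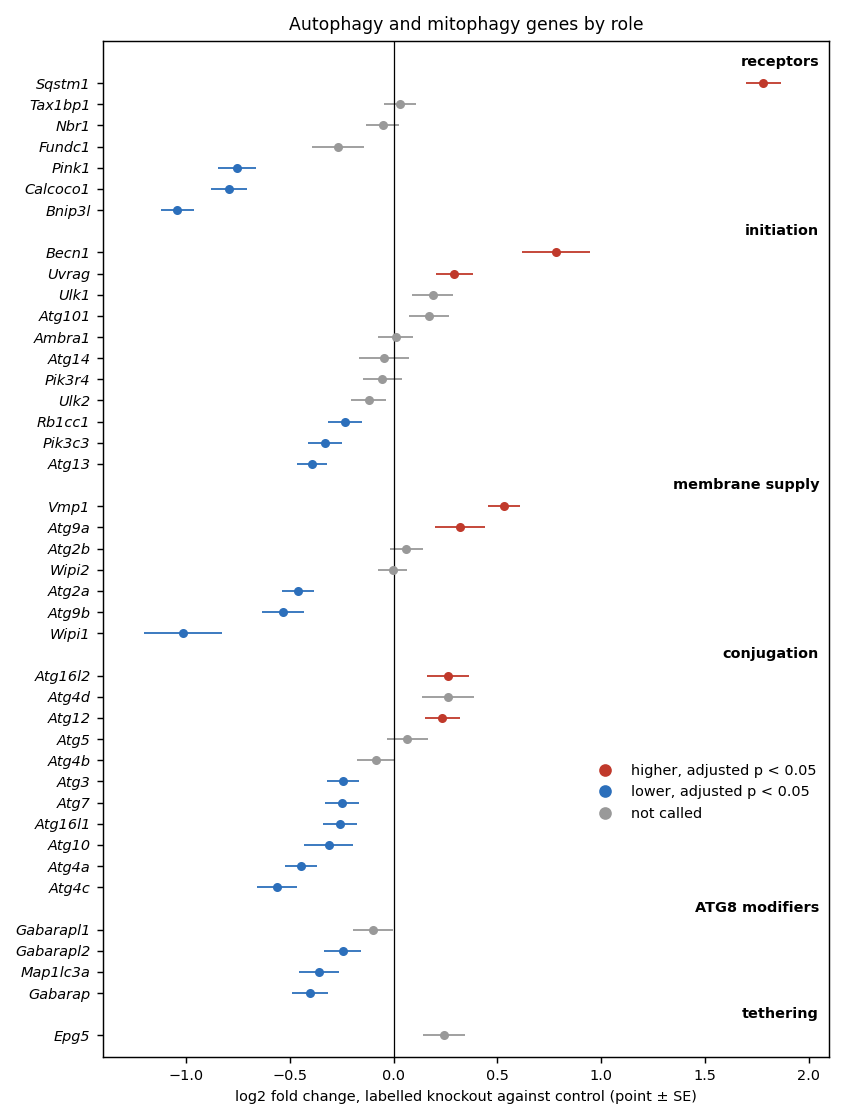
Log2 fold changes of the 41 genes (points) with their SE (bars), grouped by role, with genes called higher in red, called lower in blue and not called in grey. Sqstm1 stands at 1.78, and the other 40 genes lie between -1.04 (Bnip3l) and 0.78 (Becn1).

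By role, receptors were 1 higher and 3 lower of 7, with a median log2 fold change of -0.27. Initiation genes were 2 higher and 3 lower of 11, with a median of -0.05, and membrane supply genes were 2 higher and 3 lower of 7, with a median of -0.00. Conjugation genes were 2 higher and 6 lower of 11, with a median of -0.25, and ATG8 modifiers were 3 lower of 4, with a median of -0.30. The called share was 57.1% for receptors, 45.5% for initiation genes and 71.4% for membrane supply genes. It was 72.7% for conjugation genes and 75% for ATG8 modifiers, against 44.2% of all tested genes. The share of initiation genes was therefore near that of all genes. The median over all tested genes was 0.00. The largest single changes were among the receptors, whose log2 fold changes ran from -1.04 to 1.78, while conjugation genes stayed between -0.56 and 0.26. All 8 called conjugation genes and all 3 called ATG8 modifiers changed by less than 1.5-fold, as did 4 of the 5 called initiation genes and none of the 4 called receptors. No test of the difference between roles was made. With library totals alone, the median of the initiation genes was 0.05 and that of the membrane supply genes 0.09, so the sign of these medians depends on the scaling.

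Among the receptors, Sqstm1 rose and the mitophagy genes Bnip3l and Pink1 fell. Sqstm1 encodes p62, a receptor that binds ubiquitinated cargo and ATG8 proteins and is itself degraded by autophagy. Its level was 633, 612 and 587 CPM in controls and 2130, 2110 and 2062 CPM in the libraries labelled knockout. Every labelled knockout library was above every control, and the 3.44-fold increase (log2 fold change 1.78 ± 0.0832, SE) had an adjusted p of 2.96e-11 (edgeR). This was the largest change in the list, and it alone set the direction of the summed level: the 41 genes together were at 3782 ± 64.4 CPM in controls and 4914 ± 63.8 CPM in the libraries labelled knockout (mean ± SD, n = 3 each), while the 40 genes other than Sqstm1 were at 3171 ± 63.2 and 2813 ± 39.1 CPM. Part of the Sqstm1 exons, 17.3% of their length, overlaps Mrnip on the opposite strand, and the library kit does not mark strand. Mrnip itself was at 8.43 against 9.86 CPM (adjusted p = 0.337, edgeR).

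The promoter of Sqstm1 is shown because this gene changed most, and that of Vmp1, a membrane supply gene, because it rose most after Sqstm1 and Becn1, whose value is uncertain. The 250 bases before the RefSeq start are given 5′ to 3′ (RefSeq, GRCm38.p6, a build other than that of the counts), at chr11:50210821-50211070 for Sqstm1 and chr11:86683837-86684086 for Vmp1, both on the minus strand. Capitals mark matches on either strand to ACGTG (the core of the hypoxia response element), TGACNNNGC (the antioxidant response element) or TCACGTG (the core of the box bound by MiT/TFE factors), the last of which always contains ACGTG.
Sqstm1: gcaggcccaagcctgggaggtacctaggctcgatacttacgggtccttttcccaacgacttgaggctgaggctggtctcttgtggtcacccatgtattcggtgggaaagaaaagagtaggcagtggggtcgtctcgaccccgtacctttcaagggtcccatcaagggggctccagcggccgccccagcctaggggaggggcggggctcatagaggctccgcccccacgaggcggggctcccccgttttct
Vmp1: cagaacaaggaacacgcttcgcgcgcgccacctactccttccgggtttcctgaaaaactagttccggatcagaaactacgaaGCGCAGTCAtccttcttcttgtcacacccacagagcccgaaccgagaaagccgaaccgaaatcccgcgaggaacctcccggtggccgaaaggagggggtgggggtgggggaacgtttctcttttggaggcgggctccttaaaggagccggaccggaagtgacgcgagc
The Sqstm1 window held none of the 3 motifs, and the Vmp1 window held TGACNNNGC on the reverse of the printed strand from position -168, where -1 is the base before the start. Of the 41 genes, 33 had a promoter in the table. ACGTG was in 11 of these (33.3%), against 22% of 9716 tested genes and 16.6% of all 27025 genes with a promoter. TGACNNNGC was in 3 (9.09%), against 11.7% and 10.1%, and TCACGTG was in 2 (6.06%), against 4.92% and 3.15%. These are matches of letters and do not show binding. Only the 250 bases before 1 start per gene were searched, so a window without a match does not show that the gene lacks such an element.

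Bnip3l, also called NIX, is an outer mitochondrial membrane receptor that recruits ATG8 proteins to mitochondria. It was at 139, 157 and 155 CPM in controls and 72.2, 68.2 and 78.5 CPM in the libraries labelled knockout. The groups were well apart, and Bnip3l fell by 1.04 ± 0.0797 on the log2 scale (adjusted p = 1.7e-08, edgeR). A processed pseudogene, Bnip3l-ps, matches 20.3% of the Bnip3l transcript at 99.2% identity, so reads there may be split. It had 171, 113 and 110 counts in controls and 78, 64 and 58 in the libraries labelled knockout. Pink1, the kinase that accumulates on depolarized mitochondria and phosphorylates ubiquitin there, was at 53.5, 56.4 and 55.3 CPM in controls and 35.7, 31.4 and 30.3 CPM in the libraries labelled knockout. No library crossed between the groups, and Pink1 fell by 0.76 ± 0.092 on the log2 scale (adjusted p = 4.11e-06, edgeR). Calcoco1, a receptor for endoplasmic reticulum and Golgi membranes, was at 95.1, 116 and 111 CPM in controls and 59.1, 66.1 and 60.1 CPM in the libraries labelled knockout. It fell by 0.79 ± 0.0863 on the log2 scale (adjusted p = 1.22e-06, edgeR), again without overlap.

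The other 3 receptors did not pass the test. Nbr1, a ubiquitin-binding receptor related to p62 in architecture, was at 118, 125 and 139 CPM in controls and 118, 134 and 116 CPM in the libraries labelled knockout. Tax1bp1, a further ubiquitin-binding receptor, was at 185, 187 and 162 CPM in controls and 189.5, 180.04 and 175.9 CPM in the libraries labelled knockout. Both gave overlapping groups, so among Sqstm1, Nbr1 and Tax1bp1 an increase was seen for Sqstm1 alone, although the difference between these genes was not tested. Fundc1, an outer mitochondrial membrane receptor, was at 20.1, 24.1 and 20.5 CPM in controls and 19.6, 14.9 and 19 CPM in the libraries labelled knockout (log2 fold change -0.27 ± 0.125, adjusted p = 0.0934, edgeR).

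**Figure D2:**
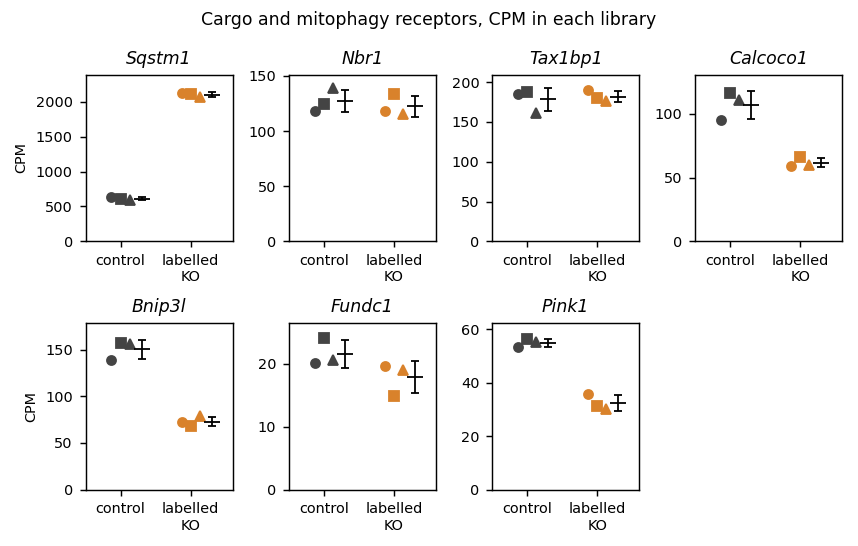
CPM (y axis, from 0) of the 7 receptors in each library, with controls in dark grey and libraries labelled knockout (KO) in orange; circles, squares and triangles are replicates 1, 2 and 3, and the bar gives the mean ± SD. Sqstm1 rises from 587 to 633 CPM in controls to above 2000 CPM, Calcoco1, Bnip3l and Pink1 fall without overlap, and Nbr1 and Tax1bp1 overlap.

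Per kilobase of annotated exon, Gabarap and Sqstm1 were the most abundant members in controls, at 192 ± 16.5 and 182 ± 6.86 CPM per kilobase (mean ± SD, n = 3), which did not differ beyond the spread among libraries. The next was Atg13 at 68.5 ± 0.041. In the libraries labelled knockout, Sqstm1 was at 626 ± 10.5 CPM per kilobase and Gabarap at 145 ± 13.8. Bnip3l moved from 39.0 ± 2.67 to 18.9 ± 1.34 CPM per kilobase, and so from above Calcoco1 (18.7 ± 1.9), Nbr1 (18.5 ± 1.52) and Tax1bp1 (17.8 ± 1.43) in controls to the level of Tax1bp1 (18.2 ± 0.701) and Nbr1 (17.8 ± 1.42). Exon lengths are from an annotation other than the one used for counting, so these levels are approximate. They take in all annotated exons of a gene, for Sqstm1 3356 bases against 2673 in its longest transcript. The SD does not hold this uncertainty, so the order of genes with similar levels is not settled.

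Of the 11 initiation genes, 2 rose and 3 fell, a called share (45.5%) near the 44.2% of all tested genes. In the ULK1 complex, Atg13, the adaptor that links the kinase to its partners, was at 299 CPM in each of the 3 controls and at 217, 240 and 227 CPM in the libraries labelled knockout. It fell by 0.39 ± 0.0719 on the log2 scale (adjusted p = 0.000276, edgeR). Rb1cc1, the scaffold FIP200, fell by 0.23 ± 0.0834 (adjusted p = 0.03, edgeR), from 112, 116 and 105 CPM in controls to 86.7, 106 and 90.3 CPM. The groups overlapped, and Rb1cc1 did not pass with library totals (adjusted p = 0.244) or when control 1, control 2, labelled knockout 1 or labelled knockout 3 was left out (0.0832 to 0.13). The kinase Ulk1 (29.5 ± 0.124 against 33.6 ± 2.96 CPM, mean ± SD, n = 3), its paralog Ulk2 (65.7, 62.2 and 56.5 against 58.5, 54.2 and 57.3 CPM) and the stabilizing subunit Atg101 (52.0, 52.1 and 59.7 against 69.1, 58.7 and 55.9 CPM) did not pass. With library totals, Ulk1 and Atg101 were called higher (adjusted p = 0.0315 and 0.0292, edgeR).

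In the class III phosphatidylinositol 3-kinase complex, 1 subunit fell and 2 rose. Pik3c3, the catalytic subunit VPS34, was at 58.4, 55.5 and 55.3 CPM in controls and 44.5, 43.5 and 46.8 CPM in the libraries labelled knockout, and fell by 0.33 ± 0.0828 on the log2 scale (adjusted p = 0.00363, edgeR). Becn1, the regulatory subunit Beclin 1, was counted at a low level, 6.40, 5.02 and 7.22 CPM in controls and 9.96, 11.4 and 10.8 CPM in the libraries labelled knockout. Its groups did not overlap, and it rose 1.72-fold (log2 fold change 0.78 ± 0.165, adjusted p = 0.00094, edgeR). However, 43.9% of the Becn1 exon length overlaps Cntd1 on the opposite strand. Cntd1 was called higher too (4.13 against 8.50 CPM, adjusted p = 0.000157, edgeR), so reads of the 2 genes cannot be told apart where they overlap and the Becn1 value is uncertain. Uvrag, a subunit of the complex that acts in membrane trafficking, was at 57.1, 47.4 and 47.8 CPM in controls and 63.8, 64.0 and 59.2 CPM in the libraries labelled knockout. It rose by 0.29 ± 0.0905 on the log2 scale (adjusted p = 0.0144, edgeR), a call lost without control 2 (adjusted p = 0.0662) or 3 (adjusted p = 0.0673), which left 1 initiation gene called higher. An antisense gene, Gm45187, shares 17.6% of the Uvrag exon length. The scaffold Pik3r4, the autophagy-specific subunit Atg14 and the regulator Ambra1 did not pass, with log2 fold changes between -0.06 and 0.01. Ambra1, the most abundant of these by CPM, was at 117, 116 and 111 CPM in controls and 102, 131 and 114 CPM in the libraries labelled knockout.

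Membrane supply genes moved in both directions. Vmp1, a lipid scramblase of the endoplasmic reticulum, was at 135, 155 and 137 CPM in controls and 214, 211 and 192 CPM in the libraries labelled knockout. Its groups did not overlap, and it rose 1.45-fold (log2 fold change 0.53 ± 0.0773, adjusted p = 2.84e-05, edgeR); the microRNA gene Mir21a shares 2.4% of its exon length. Wipi1, which binds phosphatidylinositol 3-phosphate on forming autophagosomes, was at a low level, 7.15, 9.97 and 8.49 CPM in controls and 3.78, 4.31 and 4.53 CPM in the libraries labelled knockout. It fell by 1.02 ± 0.189 on the log2 scale (adjusted p = 0.000327, edgeR), without overlap. Its relative Wipi2, which recruits the conjugation machinery, did not pass and was at 126, 122 and 121 CPM in controls and 123, 117 and 129 CPM in the libraries labelled knockout. Of the lipid transfer proteins, Atg2a was at 111, 103 and 113 CPM in controls and 72.8, 85.6 and 79.4 CPM in the libraries labelled knockout. Atg2a fell by 0.46 ± 0.079 on the log2 scale (adjusted p = 0.000149, edgeR), while Atg2b, at 147, 129.6 and 139.8 against 134, 159 and 143 CPM, did not pass. Of the scramblases of ATG9 vesicles, Atg9b was at 30.4, 30.0 and 34.5 CPM in controls and 21.4, 21.5 and 22.5 CPM in the libraries labelled knockout. It fell by 0.53 ± 0.1 on the log2 scale (adjusted p = 0.000344, edgeR), and 7.5% of its exon length overlaps Nos3. Atg9a was at 24.1, 20.2 and 18.1 CPM against 26.4, 28.8 and 23.2 CPM, so the groups overlapped. Its increase of 0.32 ± 0.121 on the log2 scale (adjusted p = 0.0397, edgeR) was lost with limma-voom (adjusted p = 0.0551) and when control 2, control 3, labelled knockout 1 or labelled knockout 2 was left out (0.0751 to 0.17). A transcript on the same strand, Gm29253, shares 31.8% of its exon length.

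**Figure D3:**
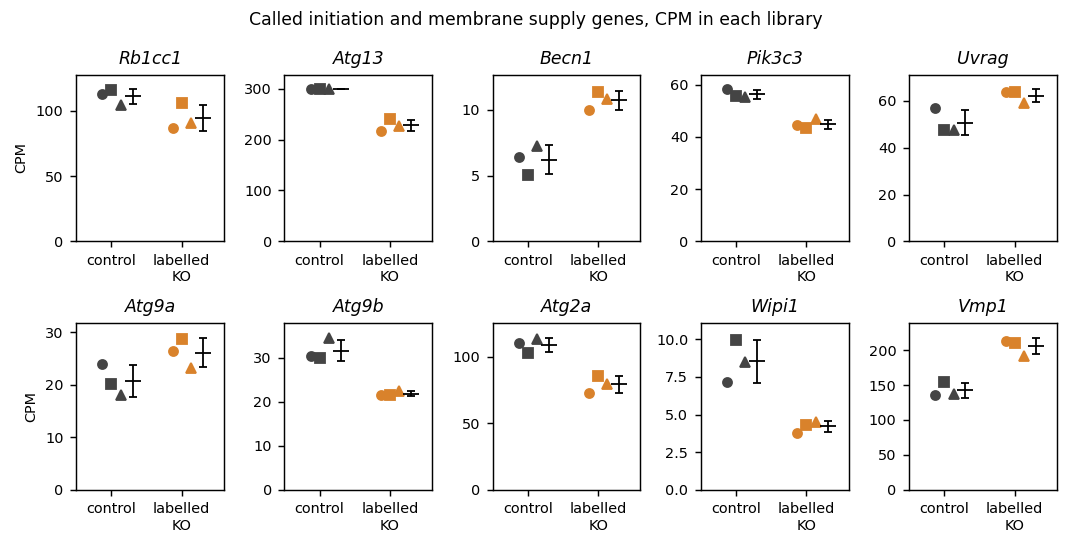
CPM (y axis, from 0) in each library of the 10 initiation and membrane supply genes that were called, with symbols as in the plot of receptors. Becn1, Uvrag, Atg9a and Vmp1 are higher and the other 6 lower in the libraries labelled knockout (KO), and the groups overlap for Rb1cc1 and Atg9a.

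Of the 11 conjugation genes, 6 fell and 2 rose, each by less than 1.5-fold. The proteases of the ATG4 family, which process ATG8 proteins and release them from lipid, were split. Atg4c was at 48.8, 54.8 and 52.3 CPM in controls and 32.2, 39.3 and 33.9 CPM in the libraries labelled knockout, and fell by 0.56 ± 0.0972 on the log2 scale (adjusted p = 0.000163, edgeR). Atg4a was at 67.1, 66.9 and 65.8 CPM in controls and 50.2, 49.3 and 46.9 CPM in the libraries labelled knockout, and fell by 0.45 ± 0.0786 (adjusted p = 0.00019, edgeR). An annotated copy, Atg4a-ps, matches 96% of the Atg4a transcript at 99.3% identity, so the Atg4a value is uncertain. Atg4b (44.4, 42.6 and 45.6 against 41.1, 39.1 and 45.0 CPM) and Atg4d (14.5, 12.7 and 13.7 against 18.2, 14.8 and 16.0 CPM) did not pass. Atg4d, which shares 19.3% of its exon length with Kri1, was called higher with library totals (adjusted p = 0.0293, edgeR).

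The enzymes of the 2 conjugation cascades, including the E1-like Atg7 and the E2-like Atg3 and Atg10, fell by 0.25 to 0.31 on the log2 scale. Atg7 was at 76.0, 73.7 and 75.4 CPM in controls and 58.3, 69.7 and 61.7 CPM in the libraries labelled knockout (log2 fold change -0.25 ± 0.0825, adjusted p = 0.0214, edgeR). Atg3 was at 89.1, 95.0 and 81.3 CPM against 76.2, 75.3 and 72.3 CPM (log2 fold change -0.25 ± 0.078, adjusted p = 0.0166, edgeR). Atg10, which conjugates ATG12 to ATG5, was at 40.5, 33.0 and 34.9 CPM against 24.2, 31.9 and 31.6 CPM (log2 fold change -0.31 ± 0.118, adjusted p = 0.0391, edgeR). None of these groups overlapped, but the gaps were narrow: the lowest control of Atg10 stood at 33.0 CPM and the highest labelled knockout library at 31.9 CPM. Atg16l1, which places the conjugation complex on membranes, was at 60.9, 62.8 and 67.1 CPM in controls and 50.2, 55.4 and 53.4 CPM in the libraries labelled knockout (log2 fold change -0.26 ± 0.082, adjusted p = 0.0157, edgeR). Its relative Atg16l2 was called in the other direction, at 28.1, 34.1 and 30.1 CPM against 34.2, 38.4 and 37.7 CPM (log2 fold change 0.26 ± 0.101, adjusted p = 0.0453, edgeR). The ubiquitin-like Atg12 also rose, from 63.9 ± 5.5 to 75.1 ± 4.15 CPM (adjusted p = 0.0309, edgeR). Atg5, the partner of ATG12, did not pass (42.6, 43.0 and 39.3 against 48.3, 38.3 and 43.9 CPM).

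These small changes depended on scaling and on single libraries. With library totals, Atg3, Atg7, Atg10 and Atg16l1 did not pass (adjusted p = 0.156, 0.201, 0.181 and 0.151, edgeR), which left Atg4a and Atg4c as the lower conjugation genes. Lower conjugation genes were 3 without control 3 or without labelled knockout 1, against 6 with all libraries. Higher ones were 0 without control 1, control 3 or labelled knockout 3, and 1 without labelled knockout 1 or 2. The adjusted p over all alternatives reached 0.163 for Atg3, 0.201 for Atg7, 0.214 for Atg10, 0.132 for Atg12, 0.151 for Atg16l1 and 0.145 for Atg16l2. Atg4a and Atg4c passed under every alternative run.

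The promoters of Atg3 and Atg7 are shown because they were the 2 members whose windows held TCACGTG. They lie at chr16:45158579-45158828 and chr6:114670846-114671095, both on the plus strand (RefSeq, GRCm38.p6), with capitals for motifs as above.
Atg3: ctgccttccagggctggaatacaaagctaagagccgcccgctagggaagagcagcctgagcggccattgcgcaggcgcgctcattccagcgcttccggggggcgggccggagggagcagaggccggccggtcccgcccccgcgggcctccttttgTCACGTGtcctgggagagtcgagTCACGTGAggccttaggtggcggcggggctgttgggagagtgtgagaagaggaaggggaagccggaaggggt
Atg7: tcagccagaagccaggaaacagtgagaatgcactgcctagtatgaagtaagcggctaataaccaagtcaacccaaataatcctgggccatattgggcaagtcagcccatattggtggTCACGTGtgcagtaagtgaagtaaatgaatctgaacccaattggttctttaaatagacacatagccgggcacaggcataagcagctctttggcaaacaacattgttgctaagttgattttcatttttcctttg
In Atg3 the matches to TCACGTG begin at positions -95 and -72 on the printed strand, and a match on its reverse begins at -71. In Atg7 the match begins at position -133.

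ATG8 modifiers were lower for 3 of 4 analysed. These small ubiquitin-like proteins are attached to the autophagosome membrane and bind receptors. Gabarap was at 327, 387 and 346 CPM in controls and 295, 246 and 260 CPM in the libraries labelled knockout, and fell by 0.40 ± 0.0869 on the log2 scale (adjusted p = 0.00112, edgeR). Map1lc3a, which encodes LC3A, was at 38.5, 41.4 and 44.6 CPM in controls and 34.7, 31.1 and 30.8 CPM in the libraries labelled knockout, and fell by 0.36 ± 0.0964 (adjusted p = 0.00566, edgeR). Gabarapl2 was at 51.7, 57.8 and 53.4 CPM against 45.7, 42.5 and 49.2 CPM and fell by 0.25 ± 0.0891 (adjusted p = 0.0335, edgeR). None of these 3 overlapped between groups. Gabarapl1, at 51.7, 61.1 and 56.4 against 52.4, 46.8 and 58.7 CPM, did not pass, and 28.3% of its exon length overlaps 1700101I11Rik. None of the 4 was called higher by edgeR, DESeq2 or limma-voom, and 0 were higher at an unadjusted p under 0.05. The call for Gabarapl2 was lost with library totals (adjusted p = 0.205), without a filter on low counts (adjusted p = 0.0509) and when control 2, control 3, labelled knockout 1 or labelled knockout 2 was left out (0.0581 to 0.16). It has 3 annotated processed pseudogenes, each matching 20.8% to 21% of its transcript at 96.6% or more identity. ATG8 genes are short, with exon lengths from 1181 to 2325 bases, and the shortest of all tested genes were lower in general. The median log2 fold change was -0.13 over tested genes of up to 1988 bases, the range of Map1lc3a (1181) and Gabarap (1844). It was -0.02 over those of 1989 to 3364 bases, the range of Gabarapl1 (2013) and Gabarapl2 (2325). Over those of 7344 bases or more it was 0.06. With offsets for exon length and GC content, an alternative chosen after seeing the data, Gabarap still fell by 0.34 (adjusted p = 0.00095), while the call for Map1lc3a was lost (log2 fold change -0.18, adjusted p = 0.0869, edgeR). Epg5, which tethers autophagosomes to lysosomes, did not pass (38.9 ± 3.43 against 46.1 ± 4.62 CPM, adjusted p = 0.0612, edgeR), but was called higher with library totals (adjusted p = 0.0171) and without control 1 (adjusted p = 0.0413) or labelled knockout 1 (adjusted p = 0.0153).

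**Figure D4:**
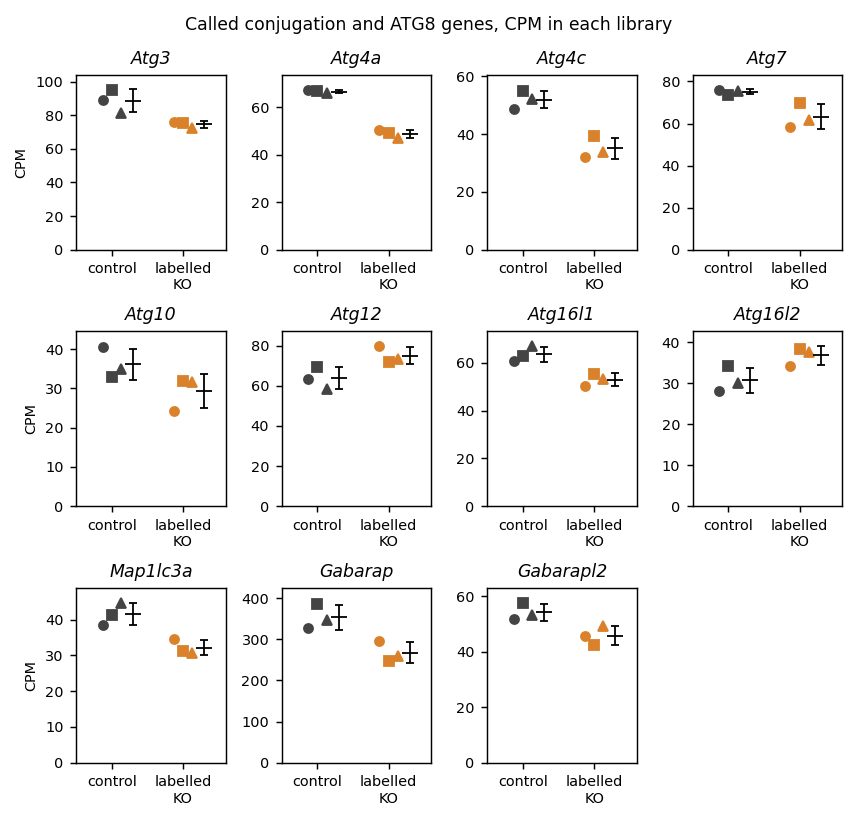
CPM (y axis, from 0) in each library of the 8 conjugation genes and 3 ATG8 modifiers that were called, with symbols as in the plot of receptors. Atg12 and Atg16l2 are higher and the other 9 lower in the libraries labelled knockout (KO), each without overlap between the groups.

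Related genes outside the list of 41 were taken from 7 lists with 92 genes, of which 90 were tested, 19 called higher and 28 lower. Higher calls fell to 12 without control 3 or labelled knockout 3. With library totals, 31 were higher and 21 lower. Among 18 other mitophagy genes, 5 were higher and 5 lower. Bnip3, the paralog of Bnip3l, was at 124 ± 9.96 CPM in controls and 13.4 ± 1.27 CPM in the libraries labelled knockout and fell by 3.21 ± 0.0979 on the log2 scale (adjusted p = 3.85e-13, edgeR), a larger fall than that of Bnip3l. Wdfy3, a scaffold for clearance of aggregates and mitochondria, rose from 74.7 ± 6.5 to 137 ± 23.4 CPM, and Tomm7, a subunit of the import pore that stabilizes PINK1, fell from 58.0 ± 16.7 to 32.8 ± 4.81 CPM. Among the other genes that fell were the outer mitochondrial membrane channel gene Vdac1 (-0.40) and the receptor Fkbp8 (-0.30). The other genes that rose were Tbk1, the kinase that phosphorylates receptors (0.37), the protease Parl (0.35), which cleaves PINK1, the receptor Bcl2l13 (0.34) and the adaptor Tollip (0.25). Of 8 receptors for endoplasmic reticulum and other cargo, 3 rose, Retreg2 (0.30), Retreg3 (0.26) and Rtn3 (0.19), and 1 fell, Tex264 (-0.52).

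Genes for fusion with lysosomes fell or did not pass, with 8 of 13 lower, none higher and a median log2 fold change of -0.29. No gene of this list was higher at an unadjusted p under 0.05 or with DESeq2 or limma-voom, while 1 gene, Vps33a, was called higher with library totals (adjusted p = 0.025, edgeR). Tecpr1, which joins autophagosomes to lysosomes, fell from 326 ± 5.58 to 208 ± 6.93 CPM (-0.65), the adaptor Plekhm1 fell from 171 ± 8.23 to 111 ± 5.47 CPM (-0.63), and the SNARE protein gene Snap29 fell from 30.2 ± 2.31 to 21.0 ± 2.26 CPM (-0.52). In the list around the phosphatidylinositol 3-kinase complex and early membranes, 5 of 9 were called higher: Ei24 (0.57), Nrbf2 (0.47), a subunit of the ATG14 complex, Sh3glb1 (0.30), Bcl2 (0.30) and Wdr45b (0.23). The count was 3 without control 2, control 3, labelled knockout 2 or labelled knockout 3 and with the replicate block, since Bcl2 and Wdr45b then did not pass (adjusted p up to 0.116 and 0.133). The single gene of that list that fell was Tmem41b (-0.58), a scramblase that acts with VMP1, so the 2 partners were called in opposite directions. Of 10 MiT/TFE and FOXO factors and folliculin complex genes, 3 fell: Mitf (-0.59), Foxo3 (-0.28) and Flcn (-0.24). The called share, 30%, was below the 44.2% of all tested genes. With library totals, 2 genes of this list were called higher and 1 lower, as Foxo3 and Flcn did not pass (adjusted p = 0.136 and 0.175, edgeR). The call for Flcn was also lost with offsets for length and GC content (adjusted p = 0.0859, edgeR). The autophagy and lysosome regulators Tfeb and Tfe3 did not pass.

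Of 22 genes of mTORC1, the nutrient-sensing kinase complex that restrains ULK1, and of its inputs, 4 were called higher and 8 lower, and genes of opposite roles were called in each direction. The lower genes were the inhibitors Ddit4 (-1.08) and Deptor (-0.76), and 6 genes that serve to activate the complex at lysosomes: Rraga (-0.58), Lamtor1 (-0.56), Rragd (-0.45), Lamtor2 (-0.43), Rragc (-0.36) and Lamtor3 (-0.23). The higher genes were the subunit Mlst8 (0.63), the activator Rheb (0.20), and Tbc1d7 (0.28) and Tsc1 (0.21), whose products belong to the inhibitory TSC complex. Higher calls were 1, Mlst8, without control 3, without labelled knockout 3 and with the replicate block. Tbc1d7 was also lost without control 1, Rheb without labelled knockout 1, and Tsc1 when control 2 or labelled knockout 2 was left out, and their highest adjusted p-values over the alternatives were 0.114, 0.129 and 0.137. Rragd was lost without control 3 (adjusted p = 0.0627) and Lamtor3 when control 1, control 2, labelled knockout 2 or labelled knockout 3 was left out (0.0543 to 0.129). Both were also lost with library totals (adjusted p = 0.0533 for Rragd and 0.19 for Lamtor3, edgeR). That setting gave 6 higher and 6 lower genes in this list. Of 10 tested genes of AMPK, the energy-sensing kinase that activates ULK1, and of its activators, 2 rose, Prkaa2 (0.50) and Camkk2 (0.27), and 2 fell, Prkab2 (-0.50) and Prkag2 (-0.41). Prkab2 did not pass with library totals (adjusted p = 0.0595, edgeR). In the other lists, calls of named genes were lost on leaving out 1 library for Retreg3 (control 3, labelled knockout 2 or 3), Rtn3 (control 2 or 3, labelled knockout 2 or 3), Foxo3 (control 2, labelled knockout 1 or 3), Flcn (control 2 or 3), Prkab2 (control 3, labelled knockout 1 or 3) and Camkk2 (control 2), with adjusted p up to 0.0729, 0.121, 0.205, 0.124, 0.109 and 0.0846. Signed numbers in brackets are log2 fold changes, and the lists share the background of 44.2% called.

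**Figure D5:**
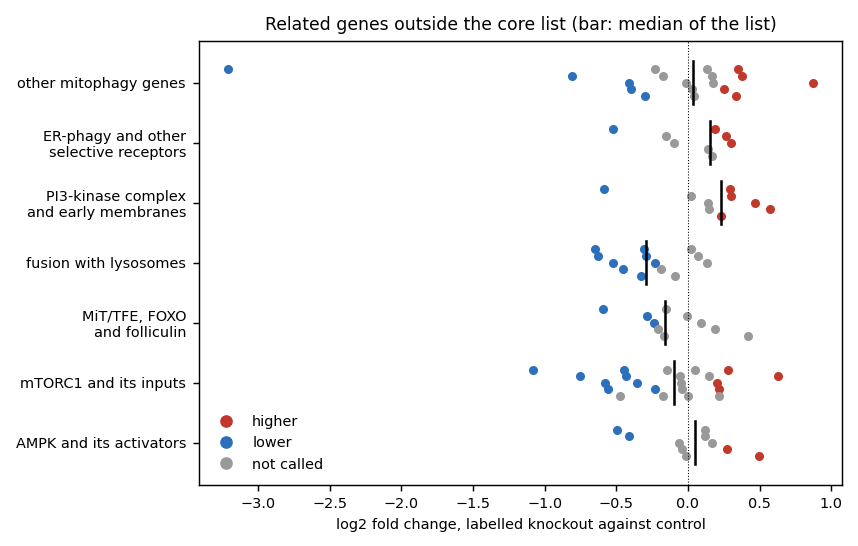
Log2 fold changes (x axis) of the 90 tested related genes, 1 point per gene by list, with genes called higher in red, called lower in blue and not called in grey; vertical bars are list medians and vertical offsets within a list carry no meaning. Bnip3 lies alone at -3.21, and all called genes of the fusion list lie below 0.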

How the data were processed

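RNA-seq libraries of 3 control and 3 labelled knockout samples were analysed. The deposited table of raw read counts per gene was used without any scaling by the authors, and its totals are given with the results. The authors' second table holds log2 values, which from the values equal log2 of the count scaled to a common library total plus 8. The submitters' processing notes name featureCounts 2.0.0, HISAT2 2.1.0, SAMtools 1.9, bcl2fastq 2.17 and the genome build GRCm39, without their order. The annotation, the strand setting and the handling of reads that map to several places are not given in the sources used here. Per the labels' protocols, poly(A) RNA went into the NEBNext Ultra kit, whose reads carry no strand information.

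The test was edgeR 4.0.16 under R 4.3.3 with TMM scaling, the filterByExpr filter and the quasi-likelihood functions glmQLFit and glmQLFTest, with no covariates, and p-values were adjusted by Benjamini-Hochberg. The filter left 4469 genes of 17872 untested. Each SE was derived from the log2 fold change and the square root of its F statistic. Alternatives were DESeq2 1.42.0, limma-voom and limma on the log2 table (limma 3.58.1), median-ratio factors, library totals, removal of the mitochondrial genome genes, no low-count filter or a stricter one (5 CPM in 3 libraries), a block for the replicate number, and omission of each library. Offsets for exon length and GC content were added after seeing the data. On simulated counts for this comparison (13275 genes tested), edgeR recovered 22% of genes changed 1.25-fold, 86% changed 1.5-fold, 98% changed 2-fold and all changed 4-fold, with 3.77% of calls false; far fewer genes were changed than in the data.

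Exon lengths, overlaps and copies (BLAST 2.17.0, at least 95% identity over 200 bases) came from GENCODE M21 on GRCm38, and promoters from RefSeq GRCm38.p6. Members and lists were chosen with earlier results of these data known. Any member could be named. In each role, values by library are given for the called genes with the strongest change (at most 5, mean CPM 1 or more) and for the most abundant genes not called (at most 3), and exceptions, such as Atg3 and Atg7, were chosen after their values were seen. Related lists name at most 3 called genes by the same order, and any further gene there was chosen after its values were seen. Values of 1 related gene are not reported here.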

Additional observations from a re-analysis of the deposited data

How the results depend on the processing

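Of the 25 called members, 14 kept their call under all 16 alternatives (Sqstm1, Calcoco1, Bnip3l, Pink1, Atg13, Becn1, Pik3c3, Atg9b, Atg2a, Wipi1, Vmp1, Atg4a, Atg4c and Gabarap), 11 lost it under at least 1, and 4 of the 16 others (Ulk1, Atg101, Atg4d and Epg5) passed under at least 1; no called member changed direction.

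With library totals, and likewise with limma on the authors' log2 table, 11 members were higher, among them 4 initiation genes, and 2 conjugation genes were lower. Related genes called higher were then 31 and 30, and those called lower were 21 under both, against 28 with TMM scaling. The adjusted p of Tfam was 0.0403 and 0.0349 (log2 fold change 0.24 in both). Median log2 fold changes under these 2 settings were 0.0532 and 0.0522 for initiation, 0.0945 and 0.0955 for membrane supply, -0.145 and -0.142 for conjugation, and -0.204 under both for ATG8 modifiers. With offsets for length and GC content, 4 initiation genes were higher, and medians were -0.213 for conjugation and -0.214 for ATG8 modifiers. The authors' log2 table is itself scaled to library totals, so it and the setting with totals share a scaling and are not separate checks. The median over all tested genes also moved, to 0.0999 with totals and 0.0926 with the log2 table. Why TMM scaling and totals differ here, and the cause of the shifts with offsets, were not tested.

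With 1 library left out, 3 to 6 members were higher and 13 to 17 lower. Receptors stayed at 1 higher and 3 lower, initiation genes were 1 to 2 higher and 2 to 3 lower, and conjugation genes 0 to 2 higher and 3 to 6 lower. Related genes were 12 to 22 higher and 23 to 27 lower. Medians ran from -0.346 to -0.154 for receptors, -0.0837 to -0.00354 for initiation, -0.0383 to 0.0279 for membrane supply, -0.252 to -0.184 for conjugation, -0.334 to -0.258 for ATG8 modifiers, and 0.182 to 0.325 for Epg5 as the tethering gene.

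Same-numbered libraries of the 2 groups did not deviate together (correlations of -0.104, -0.114 and 0.0395 across genes), so the numbers were not taken as pairs, nor did every library correlate best with its own number. With the replicate block, 5 members were higher and 16 lower, and 0 conjugation genes were higher. At these depths the simulated test recovered 22% of 1.25-fold changes. Far fewer genes were changed there than in the data, so this share does not carry over to the members. Members that did not pass may still differ by small amounts.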
